A study of Mus musculus with 4 samples.

Results

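The 3 fibrinogen chain genes Fga, Fgb and Fgg and the 3 serum amyloid A genes Saa1, Saa2 and Saa3 were followed in mouse kidney after ischemia and reperfusion. They are 6 of the 21206 genes named on the array, and they were taken by gene symbol: every non-control probe whose name in the scanner files was 1 of the 6 symbols, which gave 7 probes, each with 1 spot per array. These genes were chosen by log2 differences between these same 4 arrays that were already known, so the levels and differences below are descriptions and carry no test. RNA of kidneys of C57BL/6 mice aged 8 weeks was measured on 4 one-colour arrays, with 1 array for each group. The groups were NLRC5-/- mice after ischemia and reperfusion, wild type mice after the same injury, NLRC5-/- mice after a sham operation and wild type mice after a sham operation. Nlrc5 encodes a NOD-like receptor family protein that regulates MHC class I genes, and the series asks how its loss bears on acute kidney injury. The injury was 30 min of ischemia of both kidneys, and the labels disagree on the reperfusion time, with 48 h in titles and design text but 24 h in the description field. How the allele was made, the deleted part of the gene and whether RNA of several animals was pooled are not given in the sources used here. The titles also carry a letter, R for NLRC5-/- injured and wild type sham, and L for wild type injured and NLRC5-/- sham. Its meaning is not given, and each comparison within a genotype or within an operation sets an R title against an L title.

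Fibrinogen is a plasma protein built from the alpha, beta and gamma chains that Fga, Fgb and Fgg encode, and thrombin turns it into the fibrin of clots. The liver makes most of it, and interleukin 6 raises the 3 chain genes together in the acute phase response, the change in plasma proteins that follows injury or infection. Injured kidney tubules of rodents are also known to express fibrinogen chains. Serum amyloid A proteins are small apolipoproteins carried on high-density lipoprotein. In the mouse, Saa1 and Saa2 are nearly identical liver genes driven by interleukin 6, interleukin 1 and tumor necrosis factor through NF-kB and C/EBP factors, while Saa3 is expressed mainly outside the liver, by macrophages, fat and epithelia among others.

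The 3 probes of 60 bases printed first are those on which the serum amyloid A readings turn, since both Saa1 probes gave different results and the Saa3 probe is annotated with 2 RefSeq transcripts, one of them Saa1's. All letters are lower case because no position in them is singled out. The dimmer Saa1 probe, A_51_P361650, spans chr7:53996167-53996639 of mm9, that is 473 bases of genome for 60 bases of probe. The brighter one, A_52_P318673, lies at chr7:53996070-53996129, nearer the end of the same transcript. The Saa3 probe, A_51_P337308, lies at chr7:53968031-53968090. All 3 are on the minus strand.
Saa1 dimmer probe: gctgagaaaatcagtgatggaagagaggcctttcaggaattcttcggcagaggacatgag
Saa1 brighter probe: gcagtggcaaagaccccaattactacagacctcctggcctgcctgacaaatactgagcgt
Saa3 probe: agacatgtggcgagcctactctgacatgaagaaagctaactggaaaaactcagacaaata

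The promoters of the fibrinogen chains are shown because the 3 genes share short sequences there. Each line gives the 150 bases before the RefSeq start (GRCm38.p6), and capitals mark CTGGGA, the core of the interleukin 6 response element described in rat and human fibrinogen genes, and ATTAAC, the reverse complement of the HNF1 core letters GTTAAT. They lie at chr3:83026003-83026152 on the plus strand for Fga, chr3:83049864-83050013 on the minus strand for Fgb and chr3:83007574-83007723 on the plus strand for Fgg.
Fga promoter: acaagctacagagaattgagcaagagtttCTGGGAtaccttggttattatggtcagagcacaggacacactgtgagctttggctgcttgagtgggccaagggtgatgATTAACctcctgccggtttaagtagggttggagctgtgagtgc
Fgb promoter: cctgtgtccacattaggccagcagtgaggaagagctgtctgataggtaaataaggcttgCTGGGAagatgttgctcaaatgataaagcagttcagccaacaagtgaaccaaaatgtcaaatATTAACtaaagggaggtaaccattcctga
Fgg promoter: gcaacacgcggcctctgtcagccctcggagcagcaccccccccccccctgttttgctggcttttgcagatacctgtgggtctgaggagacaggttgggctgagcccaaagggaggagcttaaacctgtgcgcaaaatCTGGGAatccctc

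The Saa1 and Saa2 promoters are shown because they are near copies. Each line gives the 250 bases before the RefSeq start, at chr7:46742981-46743230 on the minus strand for Saa1 and chr7:46751583-46751832 on the plus strand for Saa2 (GRCm38.p6). Capitals mark the bases that differ between the pair or stand against a gap in their alignment, 12 in each.
Saa1 promoter: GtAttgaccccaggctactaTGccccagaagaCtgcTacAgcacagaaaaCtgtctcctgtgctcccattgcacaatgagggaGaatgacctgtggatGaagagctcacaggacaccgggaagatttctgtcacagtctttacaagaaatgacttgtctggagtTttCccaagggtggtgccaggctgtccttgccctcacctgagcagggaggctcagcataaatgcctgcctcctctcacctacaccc
Saa2 promoter: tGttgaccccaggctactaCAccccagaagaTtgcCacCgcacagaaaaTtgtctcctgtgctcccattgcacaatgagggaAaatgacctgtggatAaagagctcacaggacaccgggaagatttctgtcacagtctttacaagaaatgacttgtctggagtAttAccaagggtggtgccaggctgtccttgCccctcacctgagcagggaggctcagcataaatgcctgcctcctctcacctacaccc

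In the alignment of these 250 bases, Saa1 and Saa2 were identical in 238 of 251 columns (94.8%). The other 14 pairs of the 6 promoters were identical in 43.7% to 49.1% of aligned columns. Motifs were then sought on both strands of the RefSeq window of each gene, 250 bases before to 50 bases after the start. CTGGGA was found upstream of the start of Fga, Fgb and Fgg, at bases -121 to -116, -91 to -86 and -13 to -8, and downstream of the start in Saa3 and, as another copy, in Fgb. It was found in 4 of the 6 promoters, against 31.8% of all 32851 promoters in the table. The HNF1 core was found in Fga at bases -43 to -38 and in Fgb at bases -29 to -24, and in 7.10% of all promoters. The C/EBP letters TTNNGNAA were found in 5 of the 6 promoters, all but Fgg, and in 40.7% of all promoters. Saa3 held 4 copies of them. The STAT letters TTCNNNGAA were found in Fga and Fgb and in 8.30% of all promoters. The NF-kB consensus was found in Saa1 alone, at bases -91 to -82, overlapping a C/EBP match, and in 11.2% of all promoters. Of its 10 bases, 2 differ in Saa2. A match is a run of letters and no evidence of binding.

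**Figure D1:**
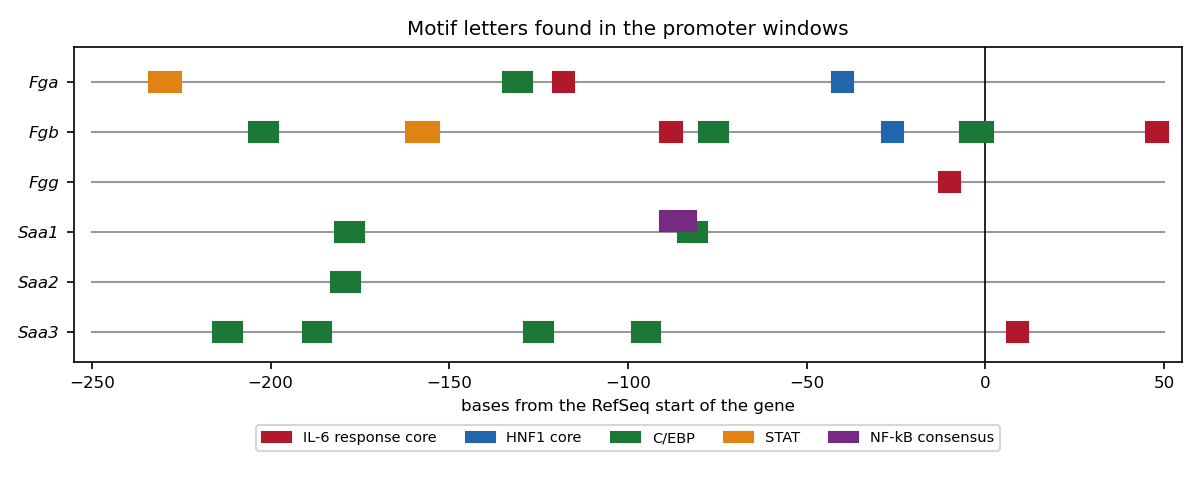
Positions of motif letters in the RefSeq promoter windows of the 6 genes, with the distance in bases from the gene's start on the x axis and 1 row per gene. Each coloured block is 1 match on either strand, and CTGGGA (red, named for the interleukin 6 response) lies upstream of the start in all 3 fibrinogen genes.

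Several properties of the arrays bear on every value that follows. Signals are Agilent processed intensities, and levels are log2 of the signal minus the array's 75th percentile, so a level is relative to the array and is compared only within a probe. The 75th percentile was 362 on the NLRC5-/- injured array, 182 on the wild type injured array, 465 on the NLRC5-/- sham array and 456 on the wild type sham array, and 67.5% to 74.9% of spots were well above background. The SD of a log2 difference between 2 arrays, from probes with several spots, was 0.17 to 0.22, which is technical error only: with 1 array per group no spread between animals can be given. Both NLRC5-/- arrays were on 1 slide and both wild type arrays on the other, so genotype and slide cannot be told apart. Each comparison of injured with sham of the same genotype lay within a slide. Xist was well above background on the NLRC5-/- sham array alone, and the Y-linked genes Ddx3y, Eif2s3y, Kdm5d and Uty were well above background on the other 3 arrays and not on that one, so each difference that involves it is also one between a female and a male pattern. The 1 probe of Nlrc5 read 29.4 and 17.9 on the injured arrays labelled NLRC5-/- and wild type, and 34.2 and 27.0 on the sham arrays labelled NLRC5-/- and wild type, well above background on all 4. A probe outside the deleted part checks nothing, so genotypes are named as the arrays are labelled. All 11 nephron markers were well above background on all 4 arrays.

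The counts in this paragraph take the brightest probe of each gene, so Saa1 is counted by its brighter probe. On the arrays labelled NLRC5-/-, 4 of the 6 genes (Fgb, Fgg, Saa2 and Saa3) were at least 2-fold higher in injured than in sham kidney, where 4.43% of 17082 genes above background on either array were so. In wild type kidneys 5 of the 6 were (all but Saa1), where 14.5% of 16714 genes were. Between the injured arrays 4 stood at least 2-fold lower on the NLRC5-/- array (Fga, Fgb, Fgg and Saa3), against 7.82% of 16785 genes, and Saa2 alone stood higher, against 8.64%. With normexp, another background correction, 2 of those 4 (Fgb and Fgg) were still 2-fold lower, and Fga and Saa3 were not. The share of all genes 2-fold higher after injury in NLRC5-/- kidneys was 29.3% with normexp, in place of 4.43%. Between the sham arrays Fgb and Fgg stood lower on the NLRC5-/- array, against 3.18% of 17031 genes, and Saa2 higher, against 3.98%. By its dimmer probe Saa1 was also 2-fold higher after injury, by 2.27 in NLRC5-/- and at least 1.42 in wild type kidneys. On the NLRC5-/- arrays that probe stood higher by 1.97 in injured and at least 1.12 in sham kidneys, both under 2-fold with normexp. None of the 6 was 2-fold lower after injury, against 3.2% of genes in NLRC5-/- and 12.6% in wild type kidneys. As the genes were chosen with these differences known, nothing is read from these shares. In whole kidney, more cells of a type and more RNA per cell cannot be told apart.

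Fgb, the beta chain, was read by a probe at chr3:82846334-82846393 (mm9, minus strand). Its signal was 450 on the NLRC5-/- injured array, 524 on the wild type injured array, 51.2 on the NLRC5-/- sham array and 153 on the wild type sham array, which gives levels of 0.35, 1.57, -3.15 and -1.54 in the same order. Both injured arrays lay above both sham arrays, and within each operation the NLRC5-/- array lay below the wild type array. The difference of injured minus sham was 3.50 on the log2 scale in NLRC5-/- kidneys, an 11.3-fold higher level, and 3.11 in wild type kidneys, an 8.66-fold higher level. With normexp in place of the scanner's background correction it was 2.45 in NLRC5-/- and 2.48 in wild type kidneys. The difference between NLRC5-/- and wild type was -1.22 in injured and -1.60 in sham kidneys. The spot error that the scanner software gave for these 4 differences was 0.20 to 0.22.

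Fgg, the gamma chain, which also carries a binding site for platelet integrin, had a signal of 2103 on the NLRC5-/- injured array, 3196 on the wild type injured array, 433 on the NLRC5-/- sham array and 1106 on the wild type sham array. Its probe lies at chr3:82818825-82818884 (mm9, plus strand). The levels were 2.58, 4.18, -0.07 and 1.31 in the same order, and the arrays stood in the same order as for Fgb. Injured minus sham was 2.64 in NLRC5-/- (6.24-fold higher) and 2.87 in wild type kidneys (7.30-fold higher). NLRC5-/- minus wild type was -1.60 in injured and -1.38 in sham kidneys. In both operations the beta and gamma chains thus stood lower on the NLRC5-/- array, and their responses to injury differed between the genotypes by 0.38 for Fgb and -0.22 for Fgg (NLRC5-/- minus wild type).

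Fga, the alpha chain, had a signal of 61.3 on the NLRC5-/- injured array, 96.4 on the wild type injured array, 69.0 on the NLRC5-/- sham array and 50.4 on the wild type sham array. Its probe lies at chr3:82835678-82835737 (mm9, plus strand), and it was well above background on all 4 arrays. The levels were -2.52, -0.87, -2.71 and -3.14. The wild type injured array stood alone above the other 3, and both NLRC5-/- arrays were within 0.19 of each other, which is about the size of the technical error. Injured minus sham was 0.19 in NLRC5-/- and 2.27 in wild type kidneys (4.82-fold higher). NLRC5-/- minus wild type was -1.65 in injured and 0.43 in sham kidneys. The response of Fga was therefore lower by 2.08 in NLRC5-/- than in wild type kidneys, a value with 1.80% of the 14989 genes measured on all 4 arrays below it. This pattern rests on the background correction: with normexp in place of the scanner's correction, NLRC5-/- minus wild type in injured kidneys was -0.09 and injured minus sham in NLRC5-/- kidneys was 1.26. In that last comparison 29.3% of all genes were 2-fold higher with normexp, against 4.43% with the scanner's correction.

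Distances were taken between profiles centred on their means over the 4 arrays, with Saa1 read by its nearly level brighter probe alone. Fgb and Fgg lay 0.32 apart (root mean square, log2), the smallest distance among the 15 pairs of the 6 genes read in this way. Fga lay 1.27 from Fgb and 0.99 from Fgg. Saa1 and Saa2 lay 1.58 apart by that Saa1 probe. No distance was computed for the dimmer Saa1 probe, which ranked the arrays as Saa2 did and had larger differences. Neither the 1.58 nor the smallest pair is therefore given for it. Saa3 was not well above background on the wild type sham array, so its distances depend on the value set there: from the fibrinogen genes they were 1.11 to 1.26 with the probe's own signal and 0.58 to 0.84 with the lowest signal well above background.

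**Figure D2:**
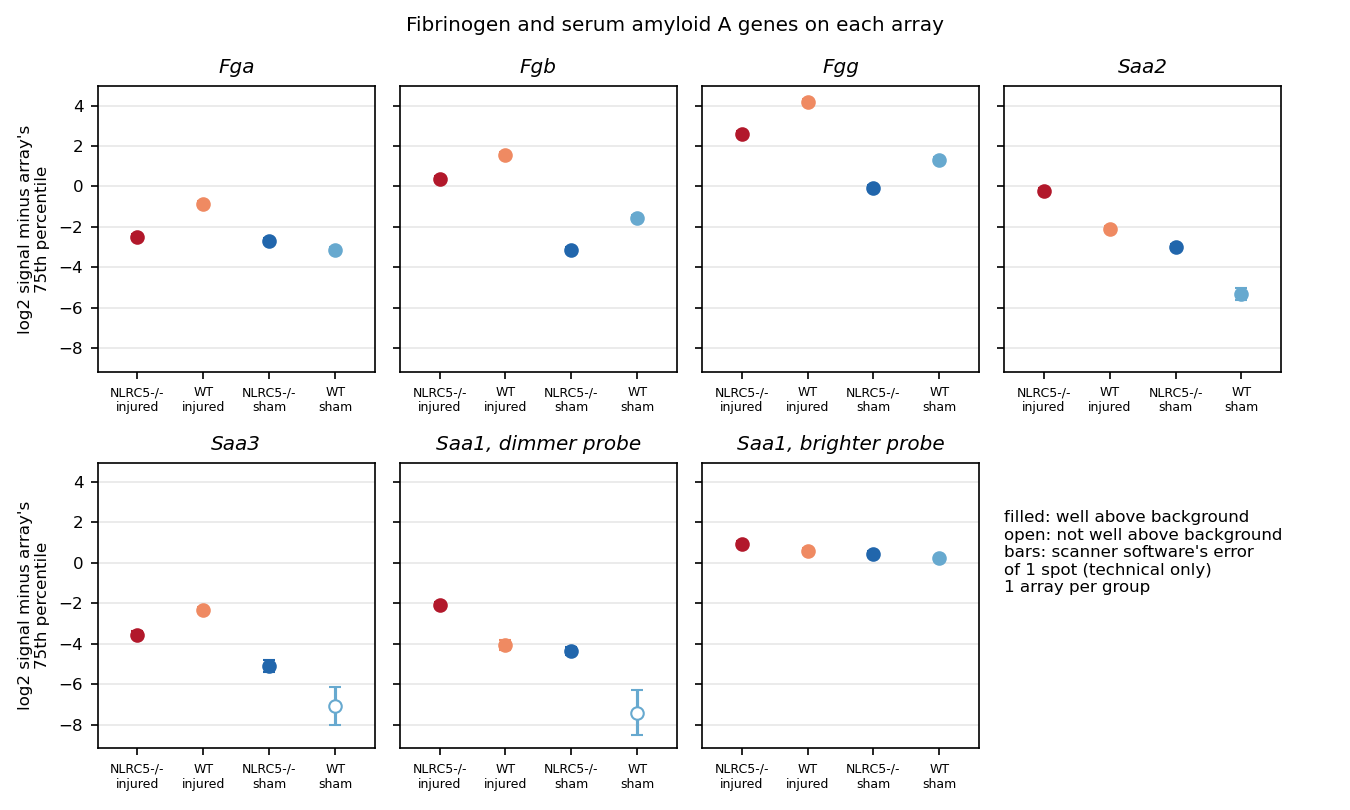
Level of each probe of the 6 genes (log2 signal minus the array's 75th percentile, y axis) on the NLRC5-/- injured, wild type injured, NLRC5-/- sham and wild type sham arrays (x axis). Points are single arrays, bars are the scanner software's error for 1 spot, and open points are probes not well above background. Fgb and Fgg are highest on the wild type injured array, and Saa2 and both Saa1 probes on the NLRC5-/- injured array.

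Saa2 had a signal of 298 on the NLRC5-/- injured array, 41.2 on the wild type injured array, 56.7 on the NLRC5-/- sham array and 11.1 on the wild type sham array, with levels of -0.24, -2.10, -2.996 and -5.33. Its probe lies at chr7:54009535-54009594 (mm9, plus strand). Both injured arrays were above both sham arrays, and within each operation the NLRC5-/- array was the higher, the opposite order to Fgb and Fgg. Injured minus sham was 2.75 in NLRC5-/- (6.75-fold higher) and 3.23 in wild type kidneys (9.39-fold higher), and with normexp it was 2.01 in NLRC5-/- and 1.61 in wild type kidneys. NLRC5-/- minus wild type was 1.86 in injured (3.62-fold) and 2.33 in sham kidneys (5.04-fold), and the responses differed by -0.48, a sign that normexp turned. Its signal on the wild type sham array was close to the lowest signal well above background there, 10.02, and with normexp the difference between the sham arrays was 0.67, and 0.65 without flagged spots, both under 2-fold.

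Saa1 gave 2 readings. By the brighter probe its signal was 668 on the NLRC5-/- injured array, 269 on the wild type injured array, 612 on the NLRC5-/- sham array and 519 on the wild type sham array, with levels of 0.92, 0.61, 0.44 and 0.22. All 4 levels lay within 0.70, and no difference between 2 arrays reached 2-fold: injured minus sham was 0.49 in NLRC5-/- and 0.39 in wild type kidneys, and NLRC5-/- minus wild type was 0.32 in injured and 0.22 in sham kidneys. By the dimmer probe, which spans 473 bases of genome, the signal was 82.99 on the NLRC5-/- injured array, 10.6 on the wild type injured array, 22.1 on the NLRC5-/- sham array and 2.63 on the wild type sham array, where it was not well above background. Injured minus sham was 2.27 in NLRC5-/- (4.82-fold higher) and at least 1.42 in wild type kidneys (at least 2.68-fold higher). NLRC5-/- minus wild type was 1.97 in injured kidneys (3.92-fold) and at least 1.12 in sham kidneys (at least 2.17-fold). Both calls between genotypes depend on the processing: with normexp they were 0.96 and 0.34, under 2-fold, and the sham difference was 0.96 with median scaling, 0.81 with quantile normalization and 0.84 in the authors' deposited table. These "at least" values hold for the scanner's background correction and the 75th percentile scaling, and set the unmeasured side at the lowest signal well above background on its array, or at the probe's own where that was higher. The arrays stood in the same order by both probes and by Saa2, NLRC5-/- injured highest and wild type sham lowest, and the probes parted in the size of the differences. Which Saa transcripts each probe reads was not tested, and the copies of these genes are nearly identical.

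Saa3 had a signal of 30.1 on the NLRC5-/- injured array, 35.2 on the wild type injured array, 13.02 on the NLRC5-/- sham array and 3.31 on the wild type sham array, where it was not well above background. The levels of the 3 measured arrays were -3.55, -2.33 and -5.12. With the scanner's background correction the wild type injured array was the highest, as for the fibrinogen genes, and the wild type sham array the lowest, as for Saa1 and Saa2. Injured minus sham was 1.57 in NLRC5-/- (2.96-fold higher) and at least 3.15 in wild type kidneys (at least 8.86-fold higher). That bound was lower under other processing: it was 1.55 with normexp, 2.90 with quantile normalization and 2.93 in the authors' deposited table. NLRC5-/- minus wild type was -1.22 in injured kidneys, and at least 0.36 in sham kidneys (0.04 with normexp). The difference between the injured arrays turned its sign with normexp, to 0.40, and to 0.35 where the normexp fit left out flagged spots, so no direction is given for it. Saa4, the constitutive member of the family, had signals of 44.3, 15.1, 24.6 and 15.5 on the arrays in the order used for Saa3. Its levels of -2.99, -3.55, -4.20 and -4.84 ranked the arrays as those of Saa2 did, while its signals did not. Its injured minus sham differences were 1.21 in NLRC5-/- and 1.29 in wild type kidneys by the brighter probe, and 0.85 and -0.04 without scaling. Its other probe was not well above background on any array.

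Fga in NLRC5-/- kidneys and Saa1 by its brighter probe in either genotype stayed inside 2-fold after injury. With the wild type sham array in place of the NLRC5-/- sham array, a comparison added after the sex-chromosome genes had been seen, 4 of the 6 were again at least 2-fold higher on the NLRC5-/- injured array, by 1.90 for Fgb, 1.27 for Fgg, 5.09 for Saa2 and at least 1.92 for Saa3.

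**Figure D3:**
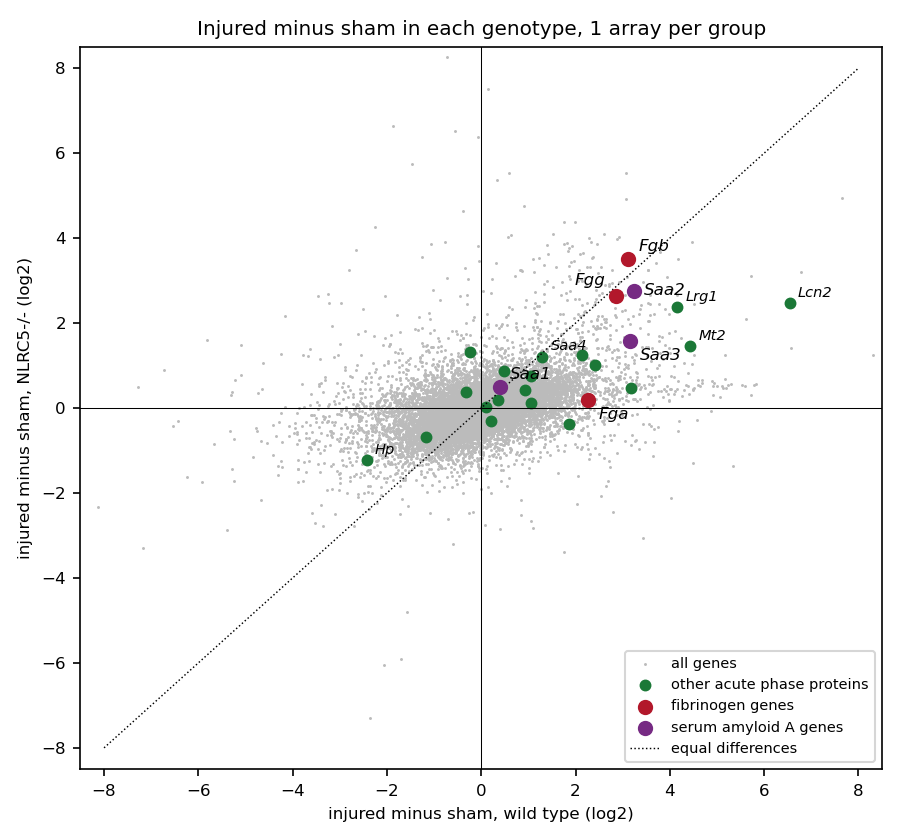
Injured minus sham in wild type kidneys (x axis) against injured minus sham in NLRC5-/- kidneys (y axis), both log2, for all genes (grey), 25 other acute phase proteins where measured (green), the fibrinogen genes (red) and the serum amyloid A genes (purple). Each axis is 1 array against 1 array and the dotted line marks equal differences. Fgb (3.50 in NLRC5-/-, 3.11 in wild type) lies above it and Fga (0.19 in NLRC5-/-, 2.27 in wild type) below it. Values that rest on a probe not well above background are bounds.

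The scaling matters most for both comparisons that use the array of injured wild type kidney, where signals were lowest. With no scaling between arrays, a setting added after the data were seen, the median of all genes moved to 1.01 for NLRC5-/- minus wild type in injured kidneys, and to -0.34 and -1.30 for injured minus sham in NLRC5-/- and wild type kidneys. Against that shifted median, Fga stood at -0.65, Fgb at -0.22, Fgg at -0.60 and Saa3 at -0.23 between the injured arrays, and Saa2 at 2.85. Unscaled, injured minus sham in wild type kidneys was 0.93 for Fga, 1.78 for Fgb, 1.53 for Fgg and 1.89 for Saa2, and -0.95 for Saa1 by its brighter probe. Between the sham arrays, whose 75th percentiles were nearly equal, the unscaled differences were -1.58 for Fgb, -1.35 for Fgg and 2.36 for Saa2.

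**Figure D4:**
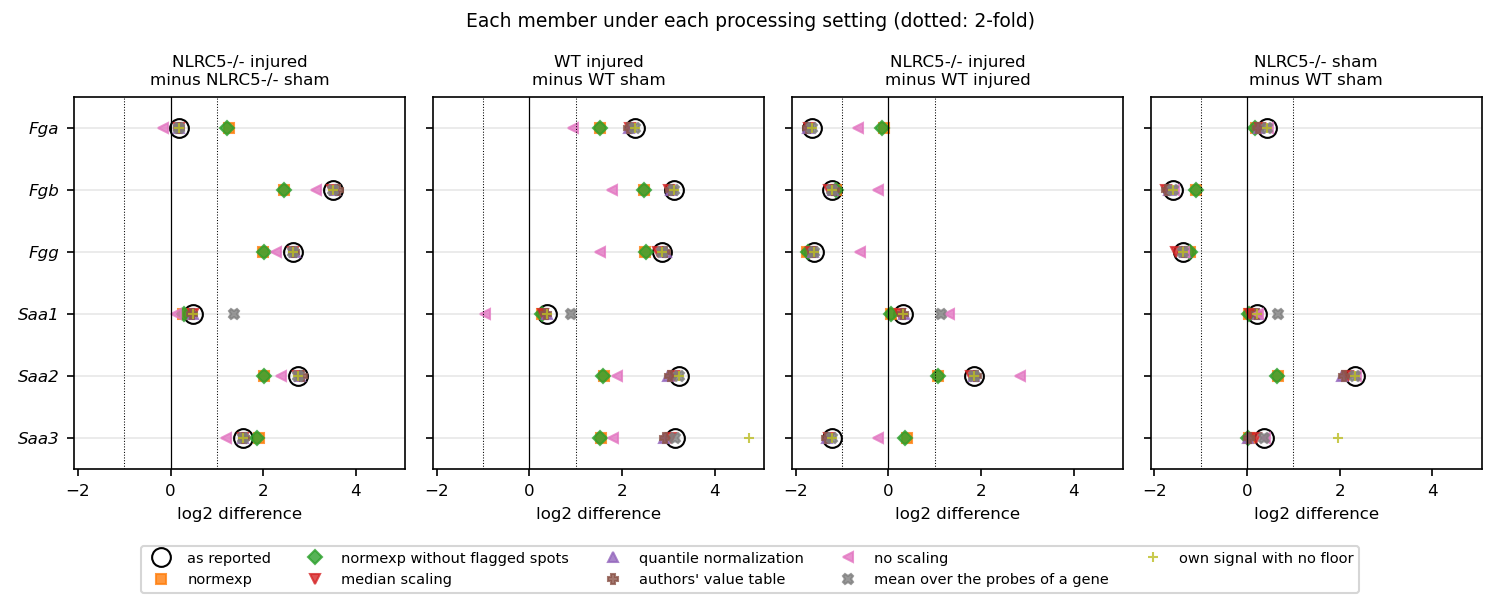
Each gene (rows) under each processing setting (symbols) in each comparison (panels), as log2 differences on the x axis with dotted lines at 2-fold. Open circles are the values as reported. Fgb and Fgg keep their side of zero in every panel, and Saa3 crosses zero between the injured arrays with normexp (0.40).

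Other acute phase proteins were followed as a list of 25 genes that leaves out the 6. In NLRC5-/- kidneys 8 of 21 above background were 2-fold higher after injury and 1 was lower, against 4.43% and 3.2% of all genes, with a median of 0.46 beside 0.02 for all genes. In wild type kidneys 11 of 21 were higher and 2 lower, against 14.5% and 12.6%, with a median of 1.05 beside 0.04. Between the injured arrays 1 was higher and 7 lower of 22, against 8.64% and 7.82% of all genes, with a median of -0.33 beside 0.01. Between the sham arrays 1 was higher and 1 lower of 21, against 3.98% and 3.18%. Lcn2, which encodes the siderophore-binding protein lipocalin 2, had an injured minus sham difference of 2.46 in NLRC5-/- and 6.54 in wild type kidneys, and stood at -3.02 between the injured arrays. The difference of Lrg1, a leucine-rich glycoprotein, was 2.37 in NLRC5-/- and 4.15 in wild type kidneys, and it stood at -1.93 between the injured arrays. The metallothionein genes Mt2 and Mt1, whose products bind metal ions, stood at 1.46 and 0.46 after injury in NLRC5-/- kidneys and at 4.43 and 3.18 in wild type kidneys, and the other Mt1 probe gave 0.31 in NLRC5-/- and 1.93 in wild type kidneys. Hp, which encodes the hemoglobin-binding haptoglobin, had the opposite sign to Fgb, Fgg, Saa2 and Saa3: its injured minus sham difference was -1.23 in NLRC5-/- kidneys. It stood at -2.43 after injury in wild type kidneys and at -3.32 between the sham arrays, NLRC5-/- minus wild type, and the next sentences concern these last 2 values. Both Hp differences rest on the wild type sham array, where its signal was 466. It was 15.7 on the NLRC5-/- injured, 34.2 on the wild type injured and 47.4 on the NLRC5-/- sham array. The adipocyte markers given below also had their highest sum on the wild type sham array, and their part in Hp was not tested. Lcn2, Lrg1, Mt2, Mt1 and Hp all stood lower on the NLRC5-/- injured array than on the wild type injured array, as the fibrinogen chains did, where Saa2 stood higher. Serpina3k was at least 1.86 higher after injury in wild type kidneys, where its sham value was not above background. In NLRC5-/- kidneys it stood at -0.38 or further from 0, with an injured value not above background.

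The cytokines and the signal chain known to induce these genes were a list of 29, of which 28 were on the array. After injury, levels 2-fold or more above sham were found for 5 of 26 above background in NLRC5-/- kidneys and for 11 of 25 in wild type kidneys, with 0 lower in either. Over all genes 4.43% and 14.5% were higher, and 3.2% and 12.6% were lower. The medians of the list were 0.27 in NLRC5-/- and 0.59 in wild type kidneys, beside 0.02 and 0.04 for all genes. Between the injured arrays 0 were higher and 3 lower of 26, against 8.64% and 7.82% of all genes. Il6 itself was not well above background on any array, so no level can be set beside the fibrinogen genes for it. Stat3, the factor that carries the interleukin 6 signal to the nucleus, exceeded its sham level by 0.74 in injured NLRC5-/- kidneys and by 1.99 in injured wild type kidneys, and its other probe gave 0.57 and 2.14. Socs3, the feedback inhibitor of that signal, gave 0.07 in NLRC5-/- and 0.31 in wild type kidneys by its brightest probe but 2.11 and 3.43 by the other one. The C/EBP factor genes Cebpb and Cebpd stood at 0.57 and -0.94 in NLRC5-/- kidneys and at 1.79 and 2.41 in wild type kidneys, and the other Cebpb probe gave 0.17 in NLRC5-/- and 1.38 in wild type kidneys. Both were lower by more than 2-fold on the NLRC5-/- injured array, at -1.09 and -1.63. In the NF-kB branch, the I kappa B family gene Nfkbiz was higher by 1.07 in NLRC5-/- and 2.23 in wild type kidneys and the subunit gene Relb by 1.01 and 2.19. Il1rn, the interleukin 1 receptor antagonist gene, was higher by at least 1.85 and at least 2.42. Lifr, the leukemia inhibitory factor receptor gene, gave 0.26 in NLRC5-/- and 5.06 in wild type kidneys by its brightest probe. Its other probes gave -0.75 to 0.02 in NLRC5-/- and -2.28 to 0.12 in wild type kidneys.

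**Figure D5:**
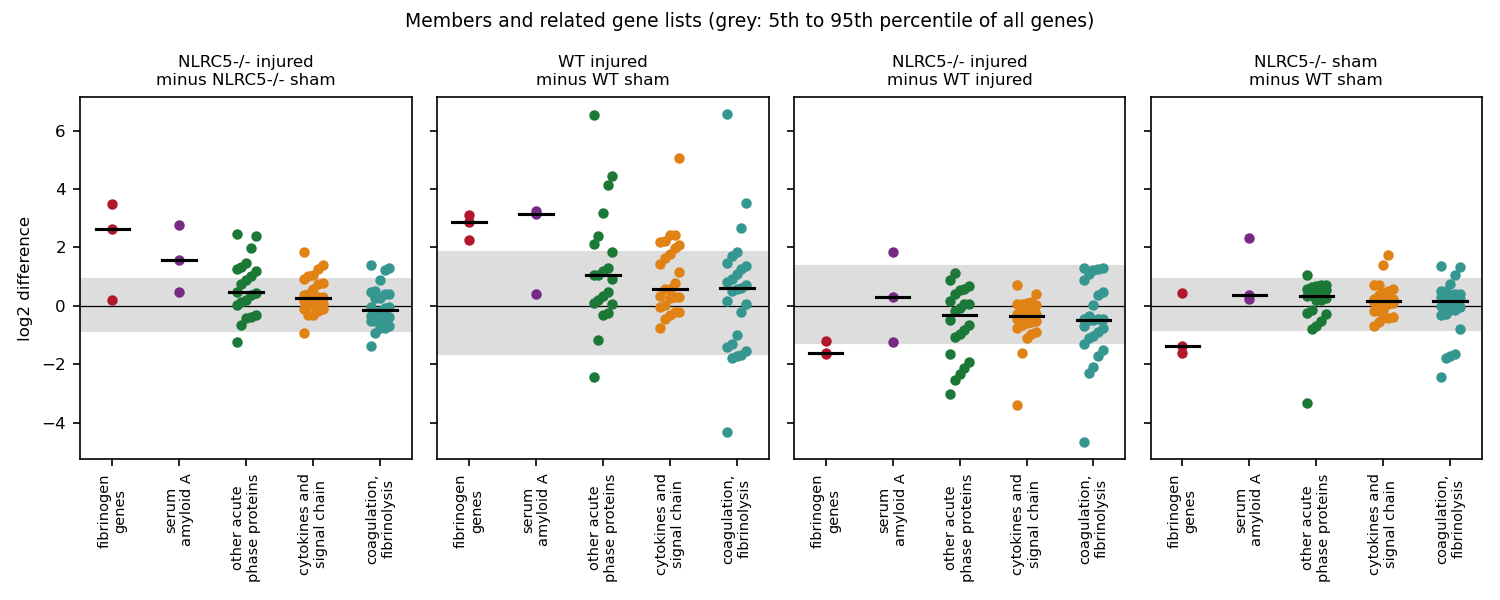
Differences (log2, y axis) of the fibrinogen genes, the serum amyloid A genes, other acute phase proteins, inducing cytokines with their signal chain, and coagulation genes in each of the 4 comparisons (panels). Points are genes, black bars their medians, and the grey band holds the 5th to the 95th percentile of all genes. The fibrinogen medians were 2.64 in NLRC5-/- and 2.87 in wild type kidneys after injury and -1.60 and -1.38 between genotypes, in injured and in sham kidneys.

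Coagulation and fibrinolysis genes, the system that makes fibrin and removes it, stood on both sides of 0. Of 29 genes 26 were above background in each comparison. After injury 3 stood 2-fold higher and 1 stood 2-fold lower in NLRC5-/- kidneys, against 4.43% and 3.2% of all genes. In wild type kidneys 9 stood higher and 7 lower, against 14.5% and 12.6% of all genes. The medians were -0.13 in NLRC5-/- and 0.60 in wild type kidneys, beside 0.02 and 0.04 for all genes. Plaur, the urokinase receptor gene, stood at 1.22 in NLRC5-/- and 3.51 in wild type kidneys, and at 0.02 and 2.51 by its other probe. Cpb2, which encodes an inhibitor of fibrinolysis, stood at -0.23 in NLRC5-/- and 2.66 in wild type kidneys, while 1 other probe gave -0.73 in NLRC5-/- and both others gave 0.47 and 3.51 in wild type kidneys. The subunit genes of factor XIII, the enzyme that cross-links fibrin, had opposite signs in wild type kidneys, with F13a1 at 1.85 and F13b at -4.31. In NLRC5-/- kidneys they stood at -0.18 and -1.37. F2rl1, a protease-activated receptor gene, stood at -0.36 in NLRC5-/- and 1.72 in wild type kidneys. The prothrombin gene F2, whose product cleaves fibrinogen, stood at -0.53 in NLRC5-/- kidneys. In wild type kidneys it stood at -1.67 or further from 0 and was not above background after injury. That gene is outside the naming rule and was chosen after its values were seen.

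Of 12 genes for receptors and partners of fibrinogen, 4 of 11 above background were 2-fold higher after injury in NLRC5-/- kidneys, against 4.43% of all genes, and 5 of 11 were higher and 2 lower in wild type kidneys, against 14.5% and 12.6%. Fn1, fibronectin, which binds fibrin, stood at 2.28 in NLRC5-/- and 2.21 in wild type kidneys (0.58 in NLRC5-/- kidneys by another probe). Icam1, an endothelial ligand of fibrinogen, stood at 1.47 and 1.94 (0.57 and 1.003 by its other probe), and Itgam, the alpha chain of the leukocyte integrin that binds it, at 0.96 and 2.07 (0.87 and 2.41 by its other probe). Cdh5, the endothelial cadherin that binds fibrin, stood at -0.43 and -1.10, and its other probe gave -1.43 and -1.32. Of 12 genes for receptors and partners of serum amyloid A, 1 was higher in NLRC5-/- kidneys, and 3 were higher and 2 lower in wild type kidneys, where 4.43% of all genes, and 14.5% and 12.6%, were so. Fpr2, a formyl peptide receptor gene, stood at 0.68 in NLRC5-/- kidneys and was at least 1.89 higher in wild type kidneys, where it was not above background after the sham operation. Abca1, a lipid exporter gene, stood at 0.44 in NLRC5-/- and -1.14 in wild type kidneys.

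Whether liver RNA or blood cells could carry these transcripts was read from marker lists of 20 hepatocyte, 12 neutrophil, 11 macrophage, 5 erythroid and 9 adipocyte genes on the array. Summed levels are sums of signals relative to the 75th percentile of the array. The hepatocyte sum was 104 on the NLRC5-/- injured array, 125 on the wild type injured array, 104 on the NLRC5-/- sham array and 95.9 on the wild type sham array, with 15 of 20 markers above background on each. A single bright gene made up 73.5% to 83.1% of each sum, and without it the sums were 27.1, 21.1, 27.5 and 17.2 in the same order. Of the markers above background, 1 of 15 stood 2-fold higher and 2 lower after injury in NLRC5-/- kidneys, against 4.43% and 3.2% of all genes. In wild type kidneys 3 of 16 stood higher and 4 lower, against 14.5% and 12.6%. Apoa1, a defining liver gene, was not well above background on any array, and neither were Ahsg, Cps1 and Mup1, which were chosen for mention after their values were seen. Alb, the albumin gene, read 29.8 and 11.4 on the NLRC5-/- and wild type injured arrays, and 58.3 and 226 on the NLRC5-/- and wild type sham arrays, so that it stood at -0.61 and -2.98 after injury in NLRC5-/- and wild type kidneys. Fabp1, a fatty acid binding protein gene of liver and proximal tubule, stood at -0.51 in NLRC5-/- and 2.12 in wild type kidneys, so the markers did not share 1 direction. Apoc3, an apolipoprotein gene of liver, stood at 1.99 between the injured and 2.15 between the sham arrays, NLRC5-/- minus wild type. Its other probe gave 2.02 and 2.32, and this was the direction of Saa2 and not of Fgb. Not all markers had that direction. Between the injured arrays 3 of 16 were 2-fold higher and 1 lower, against 8.64% and 7.82% of all genes. Between the sham arrays 3 of 15 were higher and 1, Alb at -1.98, lower, against 3.98% and 3.18%. The medians of the list were 0.17 and 0.27, beside 0.01 and 0.05 for all genes.

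Neutrophil markers had a summed level of 3.52 on the NLRC5-/- injured array, 12.99 on the wild type injured array, 7.29 on the NLRC5-/- sham array and 4.98 on the wild type sham array, with 4, 6, 7 and 5 of 12 above background. S100a9 made up 67.6% to 71.3% of the neutrophil sums, and without it they were 1.14, 3.73, 2.19 and 1.60 in the same order. Macrophage markers had sums of 18.2, 11.5, 23.3 and 17.8 in that order. Tubular injury markers had sums of 450, 1269, 165 and 95.03, so that the wild type injured array was highest, as for the fibrinogen genes. Spp1 made up 75.6% to 88.1% of these sums, and without it they were 60.8, 310, 19.7 and 17.5. Between the sham arrays 2 of the 9 tubular injury markers were 2-fold higher on the NLRC5-/- array and 2 were lower. Over all genes 3.98% and 3.18% were so, and the list's median was 0.26, beside 0.05 for all genes. Havcr1 and Krt20 were the lower ones, as Fgb and Fgg were, at -5.29 and -2.60 (-2.04 by the other Havcr1 probe). Lcn2 and Cdkn1a were the higher ones, at 1.06 and 1.34. Nephron markers had sums of 676, 350, 742 and 835, lowest on the wild type injured array. Adipocyte markers, a tissue in which mouse Saa3 is known to be expressed, had sums of 10.9, 9.04, 14.4 and 54.3 and were highest on the wild type sham array, where Saa3 was not well above background. Fabp4 made up 42.1% to 92.3% of the adipocyte sums, and without it they were 1.87, 4.48, 1.11 and 31.4. Erythroid markers had a sum of 62.8 on the NLRC5-/- sham array, against 3.21 to 10.6 on the other 3 arrays. The part of these cell types in the differences of the 6 genes was not tested.

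The genes most like each of the 6 were found among 15984 genes by the root mean square distance between centred profiles over the 4 arrays. For Fgg the nearest was Fignl1 at 0.08, a DNA repair gene, followed by S100a6 at 0.24 and Il34 at 0.33. Gstp3 and Egfem1 were also among the 5 nearest but were not well above background on 1 and 3 arrays. For Fgb it was again Fignl1, at 0.29, followed by Dscc1 at 0.31 and Exo1 at 0.38, while Aunip and Lrr1, also among the 5 nearest, were not well above background on either sham array. For Fga the nearest were Fndc4 at 0.04, Ankrd45 at 0.05, Slc25a29 at 0.06, Cd24a at 0.07 and Ankrd29 at 0.08. All 5 genes named for Saa2 were below the well-above-background call on 1 or more arrays, so no order among them is given: Medag and Mybpc2 on 1 array, Prr11 on 2, and Kif15 and Pcyt1b on 3. None of their distances, which use the probes' own signals, was under 0.46. For Saa3, itself unmeasured on the wild type sham array, no likeness is given. Saa1, by its nearly level brighter probe, had Disc1 at 0.01, with Lrwd1, Snx22, Ankrd16 and Tnfrsf11a each at 0.02. With 4 arrays a small distance is shared by many genes and says nothing of shared function or control.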

How the data were processed

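Kidney RNA of 4 groups was hybridised to 1 one-colour Agilent array each. Spot intensity, as deposited by the authors, is the processed signal of Agilent Feature Extraction (10.7.3.1 in the file headers, while the submitters' processing notes name 9.1), with background subtracted within an array and no scaling between arrays. A deposited table holds log2 values that the authors made from the same arrays, with column medians of 5.91 to 5.93 and rank correlations with the scanner intensities of at least 0.99998. How it was normalized between arrays is not given in the sources used here. Probe coordinates are of mm9.

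Spots of a probe were averaged after leaving out outlier-flagged ones (41142 probes). Each level is the log2 intensity less the 75th percentile over the probes of that array. Gene names came from RefSeq's GRCm38.p6 table by accession for 27649 probes, by symbol for 5584 and by synonym for 471, while 1254 kept the file's name and 6184 had none. The brightest probe stood for a gene, and measured other probes of a named list gene are given beside its injury differences. The 2-fold counts cover genes well above background on 1 or both arrays of a comparison. With 1 array per group there was no test and no p-value. The number of arrays limits the precision.

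The members, gene lists and naming rule were chosen with earlier results of these data known. The rule named all members, up to 4 genes per list with the largest wild type injury difference and up to 2 more with the largest difference between injured arrays, and fixed names such as Alb, Apoa1, Il6, Stat3, Socs3, Lcn2, Hp and Saa4. The text gives a selection, and a coagulation gene that the rule named is not reported here. All 6 members matched 1 RefSeq promoter each, and probe sequences are the scanner files'. Counting and bounds were tested on simulated arrays. Alternatives covered normexp (limma 3.58.1, R 4.3.3, offset 50), scaling, the authors' table, the rule for probes, the floor and a 4-fold threshold. Python 3.11.15, numpy 2.4.6 and pandas 2.3.3 were used.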

Additional observations from a re-analysis of the deposited data

Results flagged for a closer look

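Genes of all lists whose injured minus sham differences were 2-fold or more in opposite directions in the genotypes are given as values, and the difference between the genotypes was not tested in any of them. Itgax, an integrin chain that binds fibrinogen, stood at 1.25 in NLRC5-/- and -2.56 in wild type kidneys, a difference of 3.80 between the responses. A dimmer Itgax probe gave -0.00 and -0.93. Retn, the resistin gene, stood at 1.65 and -2.04, a difference of 3.69, and a dimmer Retn probe gave -0.45 and -3.26. Retn is 1 of the adipocyte markers, whose sum was highest on the wild type sham array. Its signal was 399 there and 38.5 on the wild type injured array, and the part of fat in this difference was not tested. Serpinf2, which encodes an inhibitor of plasmin, stood at 1.30 and -1.77, a difference of 3.07. The neutrophil genes ran the other way. Retnlg stood at -1.61 in NLRC5-/- and 2.06 in wild type kidneys, a difference of -3.66. S100a8 stood at -1.25 and 1.20, a difference of -2.45, and S100a9 at -1.10 and 1.45, a difference of -2.55. The NLRC5-/- responses here all use the sham array with the female pattern. None of the 6 fibrinogen and serum amyloid A genes had opposite directions.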

How the results depend on the processing

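With 1 array per group no replicate could be left out. No paired analysis was possible because each group had 1 array and no result comes from a test. The 4 and 5 genes higher after injury in NLRC5-/- and wild type kidneys stayed within 1.5 times of those counts under every alternative run. The share of all genes beside the NLRC5-/- count did not: 4.43% became 29.3% with normexp and 28.4% without flagged spots. In wild type kidneys that share was 13.3% and 12.7% under these settings, beside 14.5%. Between the injured arrays, the 1 gene higher on the NLRC5-/- array became 2 with the mean over probes or with no scaling and 0 at 4-fold. The 4 lower ones became 2 with normexp, with or without flagged spots, and 0 with no scaling or at 4-fold. Between the sham arrays, the 1 gene higher became 0 with normexp, with or without flagged spots, and 2 with each probe's own signal and no floor, and the 2 lower became 0 at 4-fold. Saa3 between the injured arrays reversed to 0.40 with normexp and 0.35 without flagged spots. The cause was not tested. Fga between the injured arrays ranged from -1.73 in the authors' table to -0.09 with normexp. Normexp moved the median of all genes to 0.23 for injury in NLRC5-/-, 0.25 for injury in wild type and 0.23 for genotype in injured kidneys. Fgb and Fgg kept their direction in all 4 comparisons under all 8 settings with scaling, and without scaling too. The no-scaling setting and the wild type sham reference were chosen after seeing the data. Dim signals limit Saa3, Saa2 and the dimmer Saa1 probe, which lie near background on the wild type sham array.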
